A study of Homo sapiens with 12 samples.

Results

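Epithelial-mesenchymal transition (EMT) is the switch by which epithelial cells loosen their junctions and take on a migratory, mesenchymal state. Transcription factors of the ZEB, SNAIL and TWIST families bind E-box elements and repress epithelial genes, ESRP1 and GRHL2 maintain the epithelial splicing and transcription programme, and vimentin, fibronectin and EPCAM are read as markers of the mesenchymal and epithelial ends. In lung carcinoma this switch is studied for its links to invasion and to drug resistance.

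The data here are the mRNA levels of 10 such genes, VIM, FN1, ZEB1, ZEB2, SNAI1, SNAI2, TWIST1, EPCAM, ESRP1 and GRHL2, in 3 lung adenocarcinoma cell lines. The 10 genes were chosen with earlier results of these data known. Their probes were then taken by name, as every non-control probe of the array whose gene name was one of the 10 symbols. This gave 15 of 50599 probes and 10 of 36337 gene names, and 14 of the 15 probes were well above background on at least 3 of 12 arrays and were tested, among 33712 probes in all. The probe that was not tested, A_24_P35228 of GRHL2, was well above background on 0 of 12 arrays.

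The lines were A549, PC14 and PC14CDDP, a cisplatin-resistant line whose parent is PC14. Each was grown in RPMI 1640 with fetal bovine serum and received 4 transfections with DharmaFECT 1 at 25 nM. The first, premiR-197, is a precursor that supplies miR-197, and was compared with the negative control NC, labelled AllStar-NC. LNA-miR-197, a locked nucleic acid inhibitor of miR-197, was compared with its control LNA-miR-NC. One array was made for each transfection of each line from 100 ng of total RNA, so that 12 one-dye 60-mer arrays were measured and no untransfected cells were among them. The study's methods say that the lines were not reauthenticated, that A549 and PC14 were purchased and that PC14CDDP was a gift of another laboratory. The 3 lines served as replicates of a transfection, and the 4 arrays of a line, which differ in transfection, as replicates of that line; nothing in the labels says that cultures were repeated, so that p-values measure only the spread between these arrays, which may be technical.

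Values are the log2 of the scanner software's processed signal after subtraction of the array's own 75th percentile on that scale, so that 0 is the level of that percentile. The percentile lay between 614 and 715 signal units, from 55.8% to 63.0% of probes were well above background on an array, and 0 spots were saturated. Slide 1 carried all A549 arrays and slide 2 the arrays of the other lines, so that slide and line cannot be told apart where A549 is compared. Of 10 lung epithelial and adenocarcinoma markers, 8 were well above background on all 4 arrays in each line. So were 3 of 5 leukocyte markers in each line, and 2, 3 and 2 of 4 endothelial markers in A549, PC14 and PC14CDDP. The count of 8 alone therefore does not identify the lines. NKX2-1 was above background on 0 of 4 arrays in A549, CDH1 on 0 of 4 in PC14CDDP, and SFTPB on 0 of 4 in every line. MIR197 has 0 probes on the array, so that the transfections could not be checked at the miRNA.

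The mature miRNA that the transfections raise or block is shown with its seed, bases 2 to 8, in capitals. It lies on chr1:109598940-109598961 (+) in the GRCh38.p14 build, and the sequence is RefSeq's.

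hsa-miR-197-3p: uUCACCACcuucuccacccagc

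The coding-sequence probes of ZEB2, TWIST1 and FN1, whose levels separated the lines, and of VIM, which was bright in all of them, are shown to define what was measured. They are the 60 bases printed on the array, 5′ to 3′, with no part in capitals, and their hg19 positions come from the scanner files. The VIM and FN1 probes cover more genome than their 60 bases and so span an intron.

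ZEB2, A_33_P3243832, chr2:145182363-145182422 (-): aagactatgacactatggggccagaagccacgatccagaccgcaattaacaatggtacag
TWIST1, A_33_P3414591, chr7:19156462-19156521 (-): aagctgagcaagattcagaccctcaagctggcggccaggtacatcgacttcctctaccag
FN1, A_24_P334130, chr2:216288217-216288895 (-): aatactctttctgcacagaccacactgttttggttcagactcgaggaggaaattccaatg
VIM, A_23_P161190, chr10:17278347-17279256 (+): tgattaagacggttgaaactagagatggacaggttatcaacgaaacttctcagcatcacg

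Between lines, the 10 genes did not follow a single epithelial or mesenchymal order. PC14CDDP had the highest ZEB2, SNAI1 and, on the brighter probe, TWIST1, and its EPCAM was not well above background. A549 had the highest EPCAM together with ZEB2 and FN1 above background and the lowest SNAI2, ZEB1 and VIM. PC14 lacked a ZEB2 and FN1 signal above background but held SNAI2 and ZEB1 well above A549. In RNA from whole cultures, fewer cells of a type and less RNA per cell cannot be told apart.

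Of the 14 probes tested, 8 were called for PC14CDDP against PC14 (limma, Benjamini-Hochberg adjusted p under 0.05), 7 higher and 1 lower, where 48.7% of all probes were called, 25.1% higher and 23.5% lower. For A549 against PC14, 12 were called, 8 higher and 4 lower, against 67.4% of all probes, 34.4% higher and 33.1% lower. For A549 against PC14CDDP, 12 were called, 3 higher and 9 lower, against 70.1%, 35.5% higher and 34.7% lower. In the comparison of PC14CDDP with PC14 the total called lies near the background, while its split favours higher calls, 5 of which come from the 3 ZEB2 and 2 TWIST1 probes. The median absolute fitted log2 difference for PC14CDDP against PC14 was 1.16 over the 14 probes against 0.41 over all probes. It was 1.85 against 0.66 for A549 against PC14, and 1.29 against 0.71 for A549 against PC14CDDP. These medians include probes with a line not above background, whose fitted values are not measured folds. For PC14CDDP against PC14, 6 of the probes were above background on all 12 arrays. They gave 0.11 (VIM), 0.39 and 0.40 (ZEB1), -0.45 (SNAI2), 1.24 (SNAI1) and 1.65 (TWIST1). The median signed differences were 0.88, 0.96 and -0.88, against 0.04, 0.05 and 0.03 over all probes. The 4 arrays of PC14CDDP and of PC14 did not overlap on 7 of the 14 probes, where 36.1% of all probes did not. A549 did not overlap with PC14 on 13, against 57.8% of all probes, nor with PC14CDDP on 13, against 55.5%. All 3 lines were apart from each other on 6 probes, against 15.7%. These were the 3 ZEB2 and 2 TWIST1 probes and the ZEB1 probe A_33_P3374723, so that probes of the same gene are counted repeatedly. ZEB2 in PC14, and TWIST1 A_23_P71073 in PC14 and PC14CDDP, were not above background on any array. The A549 counts include FN1 and the same TWIST1 probe, neither of which was above background on any PC14 array.

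ZEB2, a zinc finger repressor of E-cadherin, separated PC14CDDP from its parent most widely. On A_23_P142560, at chr2:145146261-145146320, the PC14CDDP arrays read -1.72 with premiR-197, -1.81 with NC, -1.91 with LNA-miR-197 and -1.99 with LNA-miR-NC. PC14 read -8.24, -8.22, -7.87 and -8.40 in the same order, with 0 of 4 arrays above background, and A549 read -3.91, -4.10, -3.80 and -3.64. The lines did not overlap, with PC14CDDP highest and PC14 lowest. The level in PC14CDDP was at least 21.0-fold that in PC14 (adjusted p = 6.29e-08), a bound because PC14 had no array above background. That in A549 was at least 5.24-fold the level in PC14 (adjusted p = 6.38e-08). Here and below, an adjusted p beside a bound tests the fitted log2 difference, here 6.32 and 4.32, and not the bound. A549 was lower than PC14CDDP by 4.01-fold (SE of the log2 difference 0.14, adjusted p = 3.80e-06).

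The other 2 ZEB2 probes gave the same order. On the coding probe A_33_P3243832 printed above, PC14CDDP lay between -2.48 and -2.12, A549 between -4.24 and -3.88 and PC14 between -7.26 and -6.20, the last with 0 of 4 arrays above background. PC14CDDP was at least 15.6-fold higher than PC14 (adjusted p = 1.26e-06) and 3.33-fold higher than A549 (log2 -1.74 for A549 minus PC14CDDP, SE 0.19, adjusted p = 5.46e-05). A_21_P0000590, at chr2:145268973-145269032, is listed in the files under a non-coding ZEB2 transcript, and read at least 5.68-fold higher in PC14CDDP than in PC14 (adjusted p = 1.15e-05) and 2.56-fold higher than in A549 (adjusted p = 0.00292). All 3 bounds of PC14CDDP against PC14 come from arrays of 1 slide. Within that slide alone, with the A549 arrays left out, the fitted differences of 6.32, 4.42 and 4.35 are the same by construction. Their adjusted p were then 5.27e-05, 0.000274 and 0.000612.

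ZEB1, the paralog of ZEB2 and also an E-cadherin repressor, was well above background on all 12 arrays with both probes and varied less. On A_33_P3374723, at chr10:31818063-31818122, A549 read 2.01 with premiR-197, 1.48 with NC, 1.46 with LNA-miR-197 and 1.56 with LNA-miR-NC. PC14 read 2.44, 2.48, 2.61 and 2.62, and PC14CDDP 3.44, 2.87, 2.65 and 2.73. A549 lay below both other lines on every array. It was lower than PC14 by -0.91 (SE 0.15, adjusted p = 0.000877) and than PC14CDDP by -1.30 (SE 0.15, adjusted p = 9.67e-05). The second probe, A_33_P3640690 at chr10:31816261-31816320, gave -0.88 (adjusted p = 0.000391) and -1.28 (adjusted p = 3.74e-05). Between PC14CDDP and PC14 the probes straddled the threshold: 0.39 (95% interval 0.03 to 0.74, adjusted p = 0.0702) and 0.40 (0.10 to 0.70, adjusted p = 0.0343). Within slide 2 neither was called (adjusted p = 0.148 and 0.0891).

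SNAI1, which encodes SNAIL, a zinc finger repressor of E-cadherin, was highest in PC14CDDP. Its probe A_23_P131846, at chr20:48605170-48605229, read 1.89 with premiR-197, 1.39 with NC, 2.35 with LNA-miR-197 and 1.56 with LNA-miR-NC in PC14CDDP. PC14 read 0.59, 0.13, 1.14 and 0.38, and A549 read 1.37, 0.32, 1.03 and 1.15. Every PC14CDDP array lay above every array of the other lines, while A549 and PC14 overlapped. PC14CDDP was 2.36-fold higher than PC14 (log2 1.24, SE 0.17, adjusted p = 0.000473) and 1.78-fold higher than A549 (log2 -0.83 for A549 minus PC14CDDP, SE 0.17, adjusted p = 0.00223). A549 minus PC14 was 0.41 (95% interval 0.02 to 0.79, adjusted p = 0.0594), and 6 of 16 alternative settings called it.

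SNAI2, which encodes SLUG, the second SNAIL family repressor, was lowest in A549. Its probe on chromosome 8, A_23_P169039, read -2.05 with premiR-197, -1.69 with NC, -1.64 with LNA-miR-197 and -1.80 with LNA-miR-NC in PC14. PC14CDDP read -2.43, -1.84, -2.58 and -2.14, and A549 read -4.55, -5.06, -5.14 and -5.20. All 12 were above background, and A549 lay below the other lines with no overlap. A549 was 9.13-fold lower than PC14 (log2 -3.19, SE 0.20, adjusted p = 2.68e-06) and 6.67-fold lower than PC14CDDP (log2 -2.74, SE 0.20, adjusted p = 5.39e-06). PC14CDDP minus PC14 was -0.45 (95% interval -0.91 to 0.01, adjusted p = 0.0973), and these arrays overlapped.

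TWIST1, a basic helix-loop-helix factor, was read by a pair of probes that disagreed. The coding probe A_33_P3414591 was above background on all 12 arrays and read -1.52 with premiR-197, -1.37 with NC, -1.67 with LNA-miR-197 and -1.59 with LNA-miR-NC in PC14CDDP. A549 read -2.58, -2.65, -2.01 and -2.65, and PC14 read -3.35, -2.96, -3.31 and -3.13. The lines were in the order PC14CDDP, A549, PC14 without overlap. PC14CDDP was 3.13-fold higher than PC14 (log2 1.65, SE 0.17, adjusted p = 9.78e-05), and A549 was lower than PC14CDDP by -0.93 (SE 0.17, adjusted p = 0.00105) and higher than PC14 by 0.71 (SE 0.17, adjusted p = 0.00488).

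The other TWIST1 probe, A_23_P71073 at chr7:19155645-19155704, was above background in A549 on 4 of 4 arrays, between -5.63 and -5.13, and on 0 of 4 in each of the other lines. It read A549 at least 1.33-fold above PC14CDDP (adjusted p = 0.000409), the direction opposite to the coding probe, and at least 1.79-fold above PC14 (adjusted p = 1.00e-06). With normexp background correction its difference between A549 and PC14CDDP fell to 0.09 (adjusted p = 0.279). Its difference between PC14CDDP and PC14 passed the test (adjusted p = 3.29e-05) with both lines below background, so no fold is given, and it is 1 of the 8 calls of that comparison. Which probe follows the transcript of these lines was not tested.

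VIM, the intermediate filament protein of mesenchymal cells, was bright in every line. In A549 its probe read 7.83 with premiR-197, 7.52 with NC, 7.38 with LNA-miR-197 and 7.22 with LNA-miR-NC. PC14 read 8.10, 7.96, 7.99 and 8.23, and PC14CDDP 8.38, 8.27, 7.94 and 8.13. A549 lay below both other lines, and PC14 and PC14CDDP overlapped. A549 was lower than PC14 by a log2 difference of -0.58 (SE 0.12, adjusted p = 0.00309) and 1.61-fold lower than PC14CDDP (log2 -0.69, SE 0.12, adjusted p = 0.00110). PC14CDDP minus PC14 was 0.11 (95% interval -0.18 to 0.39, adjusted p = 0.509).

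FN1, the matrix glycoprotein fibronectin, was read by a probe that the files list under a single transcript variant, and whether it binds the other FN1 transcripts was not tested. A549 read -2.96 with premiR-197, -2.45 with NC, -3.36 with LNA-miR-197 and -2.72 with LNA-miR-NC, all above background. PC14 lay between -8.47 and -6.22 with 0 of 4 arrays above background, and PC14CDDP between -7.88 and -5.52 with 1, the LNA-miR-NC array. A549 was thus the line in which every array gave a signal. A549 was at least 10.4-fold above PC14 (adjusted p = 6.98e-05), and its fitted difference from PC14CDDP was 3.96 (SE 0.51, adjusted p = 0.000159). PC14CDDP minus PC14 was 0.68 (95% interval -0.49 to 1.86, adjusted p = 0.308).

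EPCAM, an epithelial adhesion molecule, was well above background on every array in A549 alone. Its probe A_23_P91081, at chr2:47613894-47613953, read -0.19 with premiR-197, -0.63 with NC, -0.09 with LNA-miR-197 and -0.37 with LNA-miR-NC in A549. PC14 read -5.03, -5.20, -6.36 and -4.47, of which the LNA-miR-197 array was not above background, and PC14CDDP read -7.87, -7.88, -7.83 and -6.23, with 0 of 4 above. A549 stood apart from both, and PC14 and PC14CDDP overlapped. A549 was 30.9-fold above PC14 (log2 4.95, SE 0.37, adjusted p = 6.79e-06) and at least 46.1-fold above PC14CDDP (adjusted p = 7.44e-07). PC14CDDP was at least 1.49-fold below PC14 (adjusted p = 0.00145), a call that was lost with normexp background correction (-0.23, adjusted p = 0.132).

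ESRP1, the epithelial splicing regulator, was dim in every line. In A549 it lay between -4.62 and -4.38, in PC14 between -5.88 and -5.38, and in PC14CDDP between -5.88 and -4.64 with 3 of 4 arrays above background. A549 was 2.02-fold above PC14 (log2 1.01, SE 0.21, adjusted p = 0.00314). Its difference from PC14CDDP was 0.52 (95% interval 0.03 to 1.02, adjusted p = 0.0575), and PC14CDDP minus PC14 was 0.49 (-0.01 to 0.98, adjusted p = 0.0946). GRHL2, a grainyhead factor that sustains epithelial genes, was above background on 4 of 12 arrays with A_33_P3321642, and 0 comparisons of lines called it. The highest of its values, -3.09, was on the NC array of PC14CDDP, and the other 3 arrays of that line lay between -7.42 and -6.05 and below background.

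**Figure D1:**
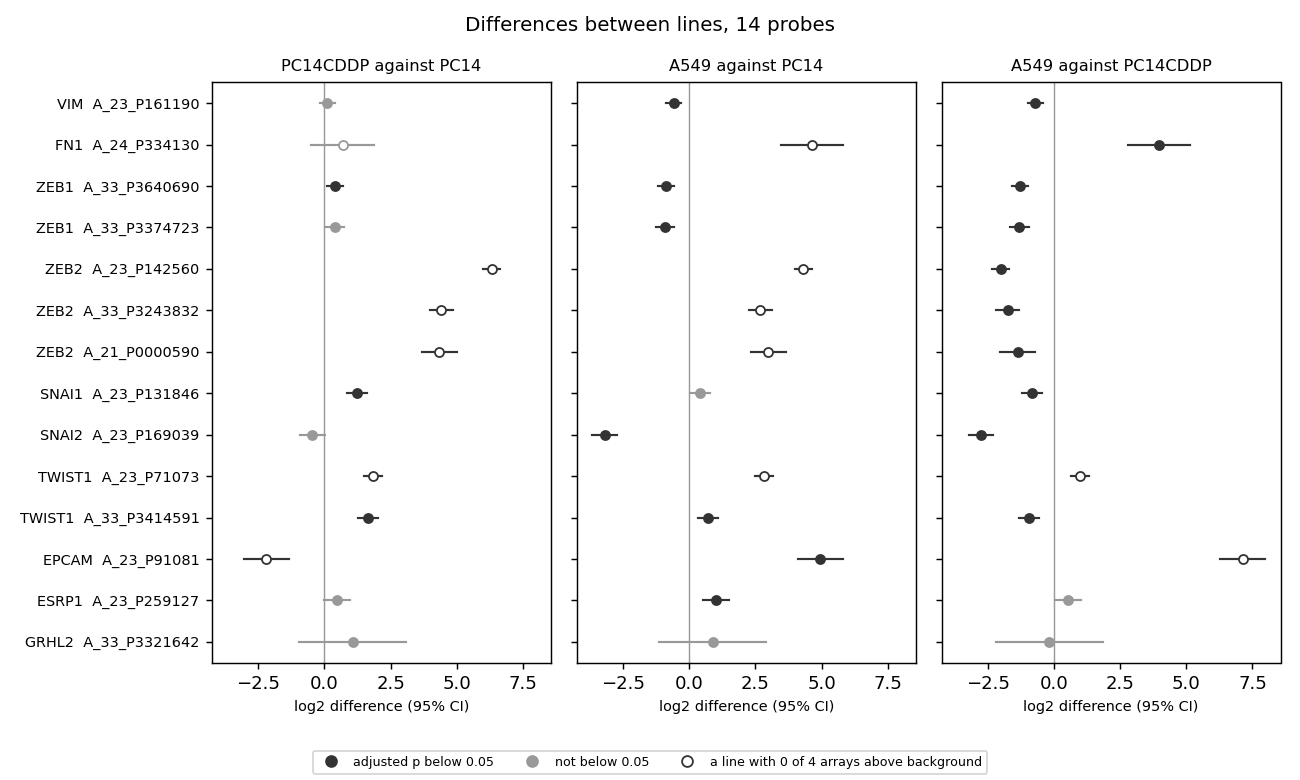
Fitted log2 differences between lines with 95% confidence intervals (x axis) for the 14 probes tested (y axis), with dark symbols for an adjusted p below 0.05 and hollow symbols where a line had 0 of 4 arrays well above background, so that the fitted value is not a measured fold. ZEB2 and TWIST1 lie to the right for PC14CDDP against PC14 and EPCAM to the left, while SNAI2 lies to the left in both A549 comparisons, at -3.19 and -2.74.

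Differences that involve dim signal were smaller after normexp background correction with an offset of 50, which compresses low values, while the direction and call of those given here stayed. The 3 ZEB2 differences between PC14CDDP and PC14 were then 2.11, 1.55 and 0.88, FN1 for A549 against PC14 was 1.46 and against PC14CDDP 1.29, EPCAM for A549 against PC14 was 2.87, and SNAI2 in the A549 comparisons -1.75 and -1.42. ESRP1 for A549 against PC14 was 0.36.

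Over the 14 probes, median absolute differences were smaller after transfection than between lines. The medians between lines include probes with a line not above background. The order did not hold for every probe. For PC14CDDP against PC14, VIM differed by 0.11 and the ZEB1 probes by 0.39 and 0.40. After premiR-197 the fitted means were 0.19 for VIM, and 0.35 and 0.31 for those ZEB1 probes. Supplying miR-197 addresses whether the miRNA lowers or raises these genes, and blocking it whether the reverse occurs. By the same limma test 0 of 14 probes were called for premiR-197 against NC, where 27 of all probes (0.0801%) were called, and 1 of the 14 had an unadjusted p under 0.05, SNAI1, as did 15.9% of all probes. For LNA-miR-197 against LNA-miR-NC, 0 of 14 were called against 7.95% of all probes, and 2 had an unadjusted p under 0.05, SNAI1 and EPCAM, as did 27.5% of all probes. For the control oligonucleotides, LNA-miR-NC against NC, 0 of 14 were called against 0.454%, and for the difference between the responses to premiR-197 and to LNA-miR-197, 0 of 14 against 0.0504%, with 0 at an unadjusted p under 0.05 in each. The methods' t-test, run here unpaired, called 0 of 14 in the first 3 of these comparisons, before and after adjustment. The spread between lines enters its SE, which for SNAI1 after premiR-197 was 0.54 against 0.19 in the limma fit. Its lack of calls therefore says little about these probes. Nor do 0 of 14 calls by limma say much where 0.0801%, 0.454% or 0.0504% of all probes were called. The median absolute log2 difference over the 14 probes was 0.24 after premiR-197, 0.20 after LNA-miR-197 and 0.18 between controls, against 0.18, 0.24 and 0.16 over all probes. A given transfection always sat in 1 slide column, so that position and transfection cannot be told apart.

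SNAI1 had the lowest of its 4 values on the NC array in all 3 lines. Of 24603 probes above background on all 12 arrays, 5.18% did the same. Relative to NC, premiR-197 gave log2 ratios of 1.05 for A549, 0.46 for PC14 and 0.50 for PC14CDDP, with a mean of 0.67 ± 0.33 (SD, n = 3; SE of the fit 0.19, limma adjusted p = 0.171). LNA-miR-NC against NC gave 0.83, 0.25 and 0.18, a mean of 0.42 ± 0.36 (limma adjusted p = 0.410). SNAI1 after the LNA control was thus also above NC in each line, with its largest ratio in A549. LNA-miR-197 against LNA-miR-NC gave -0.13, 0.76 and 0.78, a mean of 0.47 ± 0.52 (limma adjusted p = 0.161). With NC as their control the LNA-miR-197 arrays gave 0.71, 1.01 and 0.96, and that comparison called SNAI1 (0.89, limma adjusted p = 0.0239), the only one of the 14 probes called, where 14.8% of all probes were. The response to premiR-197 minus the response to LNA-miR-197 was 0.20 (95% interval -0.44 to 0.83, adjusted p = 0.743), so that both agents were followed by a higher SNAI1 mean than their controls and the test did not separate them.

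EPCAM after LNA-miR-197 was lower than after LNA-miR-NC by a fitted -1.07 (SE 0.42, adjusted p = 0.148). In A549, where all its arrays were above background, the LNA-miR-197 array read -0.09 and the LNA-miR-NC array -0.37, the opposite direction. The fitted value rested on PC14 and PC14CDDP, in which 1 of the 4 arrays concerned was above background, and with normexp background correction it was -0.08.

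Among the other probes above background on all 12 arrays, ZEB1 had higher means after premiR-197 that did not pass the test. Its log2 ratios were 0.53, -0.04 and 0.57 in A549, PC14 and PC14CDDP on A_33_P3374723 (mean 0.35, 95% interval -0.06 to 0.76, adjusted p = 0.387) and 0.28, 0.17 and 0.48 on A_33_P3640690 (mean 0.31, -0.04 to 0.66, adjusted p = 0.366). After LNA-miR-197 the means were -0.07 and 0.18. VIM gave 0.31, 0.15 and 0.11 after premiR-197 (mean 0.19, 95% interval -0.14 to 0.52, adjusted p = 0.561). The VIM interval excludes a change of 2-fold in either direction, as do the ZEB1 intervals.

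SNAI2 moved in different directions in different lines after premiR-197, with 0.50 in A549, -0.37 in PC14 and -0.60 in PC14CDDP (mean -0.15, adjusted p = 0.7996). TWIST1 on its coding probe gave 0.08, -0.39 and -0.15 (mean -0.15, adjusted p = 0.747), and after LNA-miR-197 0.64, -0.18 and -0.09 (mean 0.12, adjusted p = 0.723). With NC as the control the last mean was -0.0047. Over the 6 probes that were above background on all 12 arrays, 1 of 18 ratios within a line reached 2-fold after premiR-197, SNAI1 in A549, and 0 of 18 after LNA-miR-197. Of all 24603 such probes, 1.70% and 4.68% of the ratios did. The 3 lines had the same sign on 3 of the 6 probes after premiR-197 and on 2 of 6 after LNA-miR-197, against 49.2% and 52.7% of all such probes.

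**Figure D2:**
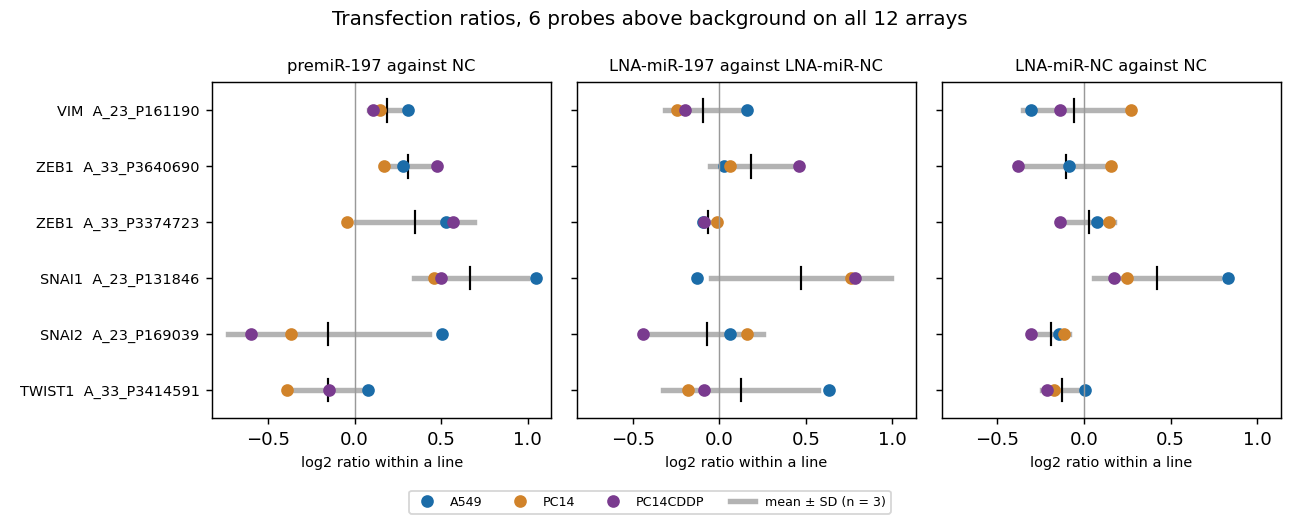
Log2 ratios within each line (x axis) for the 6 probes above background on all 12 arrays (y axis), with A549, PC14 and PC14CDDP as coloured points and grey bars for the mean ± SD of the 3 lines around a black tick. SNAI1 lies above 0 in all 3 lines after premiR-197 and also between the controls, and SNAI2 lies on both sides of 0 after premiR-197.

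Other genes of the programme were read from 5 lists with 80 genes, of which 72 were tested, by the brightest tested probe of each gene. In the comparison of PC14CDDP with PC14, 20 were higher and 27 lower, where 24.6% of 24859 genes were higher and 23.5% lower. Of 21 epithelial junction, surface and keratin genes, 2 were higher and 11 lower, with a median log2 difference of -0.80 against 0.03 over all genes (-0.64 with genes of an undetected line at their bound). CLDN4 and CLDN3, tight junction proteins, fell most: CLDN4 went from 5.98 ± 0.17 (SD, n = 4) in PC14 to -3.52 ± 0.50 in PC14CDDP, 722-fold (adjusted p = 1.56e-07), and CLDN3 was 72.9-fold lower. The higher genes were AP1M2, an epithelial clathrin adaptor subunit (log2 1.70), and RAB25, a GTPase of epithelial trafficking, which was above background on 3 of 12 arrays. Of 9 epithelial transcription and splicing regulators, 1 was higher, KLF4 (1.41-fold), and 4 lower (median -0.76), led by ELF3 (log2 -3.41, with 1 of 4 PC14CDDP arrays above background) and FOXA2 (8.57-fold), an ETS and a forkhead factor.

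Mesenchymal structural and matrix genes split between the same lines. Of 18 tested, 9 were higher in PC14CDDP and 6 lower, with a median of 0.39. TNC, the matrix protein tenascin C, rose 94.8-fold from -6.37 ± 0.56 in PC14, where 1 of 4 arrays was above background, to 0.20 ± 0.69 (adjusted p = 6.27e-08), and CDH2, which encodes N-cadherin, rose 20.0-fold (adjusted p = 5.04e-07). S100A4, a calcium-binding protein also called fibroblast-specific protein, went the other way, from 4.30 ± 0.49 to -4.10 ± 0.51, 339-fold lower (adjusted p = 4.82e-08), and the collagenase MMP2 was at least 3.29-fold lower. Of 12 further EMT transcription factors, 6 were higher and 1 lower (median 0.36), with HMGA2, an architectural chromatin protein, 7.53-fold higher, SOX4 at least 1.83-fold higher and FOXC2 3.51-fold lower, with 1 of 4 PC14CDDP arrays above background. Of 12 TGF-beta ligands, receptors and SMADs, 2 were higher, SKIL (2.48-fold) and SMAD4 (1.21-fold), and 5 lower (median -0.39), led by the co-receptor TGFBR3 (3.14-fold) and by SMAD3 (1.79-fold).

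A549 differed from both other lines on most of these genes, in comparisons where slide and line cannot be told apart. Against PC14, 45 of the 72 were higher and 17 lower, with 35.8% of all genes higher and 32.3% lower, and against PC14CDDP 46 and 14, with 36.7% and 33.6%. Epithelial junction, surface and keratin genes were higher in A549 for 12 of 21 against PC14 and 16 of 21 against PC14CDDP (medians 0.87 and 1.71), with 6 and 0 lower. CDH1, which encodes E-cadherin, lay at 0.48 ± 0.41 (SD, n = 4) in A549, was 65.7-fold above PC14, in which 2 of 4 arrays were above background, and at least 80.4-fold above PC14CDDP. KRT7 was 68.2-fold above PC14 and KRT19 95.4-fold above PC14CDDP. CLDN4 and CLDN3 were the largest falls from PC14 to A549, 66.6-fold and 8.39-fold. Of the 9 epithelial regulators, 5 were higher in A549 and 3 lower than in PC14, and 5 and 2 against PC14CDDP, with ELF3 79.9-fold higher than in PC14 and by a fitted 9.73 log2 units than in PC14CDDP, where 1 of 4 arrays was above background, EHF at least 2.44-fold higher than in PC14, FOXA1 18.8-fold higher than in PC14CDDP, and KLF4 (6.96-fold, 9.82-fold) and OVOL2 (4.90-fold, 2.80-fold, with 1 of 4 A549 arrays above background) lower.

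At the same time 15 of 18 mesenchymal structural genes were higher in A549 than in PC14 and 12 than in PC14CDDP (medians 1.78 and 1.26), with 1 and 3 lower. ACTA2, smooth muscle actin, was 52.9-fold above PC14, in which 2 of 4 arrays were above background, and TGFBI, a TGF-beta-induced matrix protein, 34.6-fold and 60.7-fold above the other lines, while S100A4 was 803-fold above PC14CDDP. ITGA5 was 1.37-fold below PC14, and TNC and LOX were 66.0-fold and 4.84-fold below PC14CDDP, with 2 and 1 of 4 A549 arrays above background. Of 6 fibroblast markers, 4 were above background on 0 of the 4 A549 arrays and THY1 on all 4. The summed linear level of these 6, with the array's 75th percentile as 1, was 1.06 to 1.27 in A549, 0.03 to 0.06 in PC14 and 0.03 to 0.04 in PC14CDDP. That of 5 leukocyte markers was 1.93 to 2.29, 0.17 to 0.27 and 0.19 to 0.54, and that of 4 endothelial markers 0.17 to 0.23, 0.41 to 0.66 and 0.15 to 0.21. The brightest gene of each list was THY1 in A549 (mean log2 0.19), CD14 in A549 (0.84) and PECAM1 in PC14 (-1.37). The part of these markers in the results on lines was not tested. Of 12 TGF-beta pathway genes, 9 were higher than in PC14 and 10 than in PC14CDDP (medians 1.36 and 1.42), led by SMAD6 (217-fold, and 273-fold with 2 of 4 PC14CDDP arrays above background) and TGFB2 (109-fold, with 1 of 4 PC14 arrays above background, and at least 48.0-fold), with TGFB3 lower in both (5.27-fold, 2.96-fold), TGFBR3 2.13-fold below PC14 and SMAD4 1.65-fold below PC14CDDP. The 12 other EMT factors gave 4 higher and 4 lower against PC14, with SOX4 at least 37.3-fold higher and HMGA2 higher by 1.003 on the log2 scale, FOXC2 at least 1.83-fold and GSC 3.62-fold lower. Against PC14CDDP they gave 3 higher and 7 lower, with SOX4 20.4-fold and SNAI3 at least 1.18-fold higher, PRRX1 at least 1.75-fold and GSC 4.76-fold lower.

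**Figure D3:**
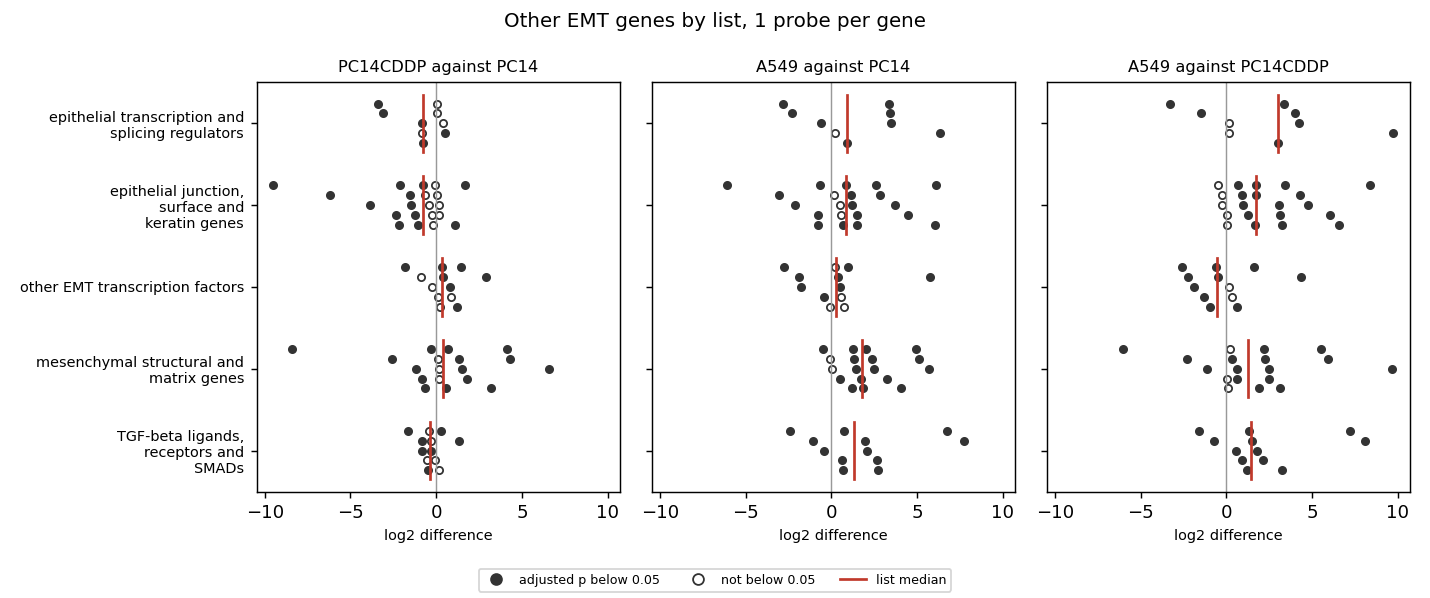
Log2 differences between lines (x axis) for the 72 tested genes of 5 EMT lists (y axis), each point 1 gene by its brightest tested probe, filled for an adjusted p below 0.05, with the list median in red. Epithelial junction genes have a median of -0.80 for PC14CDDP against PC14 and 1.71 for A549 against PC14CDDP, and mesenchymal genes spread on both sides of 0 for PC14CDDP against PC14.

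After transfection, few of the 72 genes were called. For premiR-197 against NC there were 0 (limma), where 0.0402% of all genes were higher and 0.0644% lower. An unadjusted p under 0.05 was found for 19 of the 72 after premiR-197, 21 after LNA-miR-197 and 9 between the controls, against 16.2%, 26.9% and 13.4% of all genes. For LNA-miR-197 against LNA-miR-NC, 1 was higher and 4 lower, with 3.75% and 3.95% of all genes: AP1M2 by 0.78 (SE 0.16, adjusted p = 0.0322), and LSR by -0.49 (adjusted p = 0.0424), COL1A1 by -1.05 (adjusted p = 0.0424), TGFBR1 by -0.67 (adjusted p = 0.0385) and SMAD3 by -0.56 (adjusted p = 0.0445). LSR is a component of tricellular junctions, COL1A1 a fibrillar collagen, TGFBR1 the type I TGF-beta receptor and SMAD3 its signal transducer. Between LNA-miR-NC and NC, RAB25 was 3.13 higher on the log2 scale (adjusted p = 0.0244), with 3 of 12 arrays above background, and 0 were lower, against 0.37% higher and 0.141% lower.

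Genes whose pattern over the 12 arrays was most like a member were taken as those with the smallest root mean square distance after each gene was centred on its own mean, among 18439 other genes above background on all arrays. For ZEB1 they were RABEPK (0.15 log2 units), C1orf174 (0.16) and FBXO5 (0.16). MRPL50 (0.23), THUMPD1 (0.24) and PHF23 (0.24) lay nearest to SNAI1. The genes nearest to SNAI2 were ITGA6 (0.23), KCNN2 (0.27) and SASH1 (0.27), of which ITGA6, an integrin of epithelial basement membrane adhesion, read 1.43 in A549, 4.78 in PC14 and 4.05 in PC14CDDP on average. Those nearest to TWIST1 on its coding probe were TPM4 (0.15), an actin-binding tropomyosin, UBL7 (0.21) and CARHSP1 (0.22). These distances describe the order of 3 lines more than that of 12 independent samples.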

How the data were processed

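Expression in A549, PC14 and PC14CDDP cells after 4 transfections was measured on 12 one-dye Agilent arrays. The authors read the scans with Feature Extraction (Agilent, version 10.7.3.1 per the submitters' processing notes) and deposited for every spot the intensity of mean and background pixels, a background-subtracted and detrended processed signal that is not scaled between arrays, and flags. The deposited table of intensity values equals the processed signal on every array (largest difference 0). No normalization is given in the sources used here, and 0 columns belonged to other samples. Probe coordinates (hg19) come from the scanner files.

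Control and outlier spots were left out (0 spots of the 10 genes), spots of a probe were averaged, and log2 values were taken relative to the 75th percentile of each array. Probes entered when well above background on at least 3 of 12 arrays with no missing value (106 probes had one). A limma model (version 3.58.1, R 4.3.3) held transfection and line as terms over all arrays, with eBayes and Benjamini-Hochberg adjustment over 33712 probes. The line pairs treated and control arrays, since the labels give the arrays of a line the same line name. Their deviations from the transfection means correlated with r from 0.929 to 0.947 in A549, 0.879 to 0.903 in PC14 and 0.845 to 0.897 in PC14CDDP. These deviations hold the whole difference between lines, so that a high r cannot show that arrays shared a culture. On simulated arrays with 200 of 33712 probes changed by a log2 of 2, 89.5% were recovered with 14 false calls for premiR-197 against NC, and 88.5% with 5 for PC14CDDP against PC14. Smaller changes were not simulated. The median absolute log2 difference over all probes after premiR-197 was 0.18, and recovery at such sizes is not known. Where a line had no array above background, the bound sets the mean of the bright line against the mean of a limit set for each dim array. That limit is the probe's own signal there or the array's dimmest signal well above background, whichever is higher. Brighter spots can still fail the flag. ZEB2 A_21_P0000590 did so at -5.78 on the A549 NC array, where the dimmest signal well above background was -6.11. Bounds are therefore approximate, most of all those near 1-fold, and were not themselves tested.

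The 10 genes and the lists were chosen with earlier results of these data known. Named are all probes of the 10 genes. From each list the rule names, per comparison of lines, the 2 called genes with the largest rise and the 2 with the largest fall, and up to 4 per direction after transfection. It also names the 3 genes nearest to each of the 10 that was above background on all arrays and spanned at least 1 log2 unit. Also listed were squamous or basal markers (0 of 4 above background on all arrays of any line), endothelial markers (2, 3 and 2 of 4 in A549, PC14 and PC14CDDP) and leukocyte markers (3 of 5 in each), and of the 6 fibroblast markers 1, 0 and 0 were. The alternatives were other normalizations and filters, normexp correction (offset 50), the deposited table, 1 probe per gene, other models, the methods' t-test, slide blocks, and leaving out each line or transfection. Tables and plots were made in Python 3.11.15 (pandas 2.3.3, numpy 2.4.6, matplotlib 3.10.9).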

Additional observations from a re-analysis of the deposited data

Results flagged for a closer look

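Of 45 sets of 4 arrays, 1 for each probe and line, 5 held an array far from the other 3, where chance alone gives about 2.25. In A549, TWIST1 on A_33_P3414591 read -2.01 after LNA-miR-197 and between -2.65 and -2.58 otherwise, all above background. The other 4 were not above background: EPCAM in PC14CDDP after LNA-miR-NC (-6.23, others -7.88 to -7.83), GRHL2 on A_33_P3321642 in PC14 with NC (-8.24, others -6.42 to -6.06), and GRHL2 on A_24_P35228 in A549 after LNA-miR-197 (-6.40, others -8.07 to -8.05) and in PC14CDDP after LNA-miR-NC (-8.04, others -7.60 to -7.51).

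Counting lines with both arrays above background, and ratios of at least 1.2-fold up in 1 line and down in another, lines moved in opposite directions in 2 cases. The difference between lines was not tested, since each line has 1 array per transfection. SNAI2 after premiR-197 ranged from -0.60 in PC14CDDP to 0.50 in A549, a distance of 1.10 log2 units. VIM after LNA-miR-NC against NC ranged from -0.30 in A549 to 0.27 in PC14, a distance of 0.58. Ratios of LNA-miR-197 to NC were not part of this count. There TWIST1 on A_33_P3414591 met the same rule, with 0.64 in A549, -0.35 in PC14 and -0.30 in PC14CDDP.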

How the results depend on the processing

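Among the differences with an unadjusted p under 0.05, 0 reversed under the alternatives. Many alternatives, such as the deposited table, other filters, 1 probe per gene and the t-test, keep the same fitted difference, so its sign could not reverse there. With NC in place of LNA-miR-NC, 2 of all 14 LNA-miR-197 means changed sign, ZEB2 A_33_P3243832 from 0.04 to -0.29 and TWIST1 A_33_P3414591 from 0.12 to -0.0047. Counts of the 14 probes kept within 1.5 times of the values given, except that the filter on all 12 arrays left 6 probes, of which 4, 6 and 6 were called for PC14CDDP against PC14, A549 against PC14 and A549 against PC14CDDP, that 1 probe per gene gave 4 for PC14CDDP against PC14, and that NC in place of LNA-miR-NC gave 1 for LNA-miR-197, SNAI1. Leaving out each transfection gave 7 to 8, 12 to 13 and 12 calls in the comparisons of lines, and leaving out each line gave 0 in those of transfections. The fit with no replicate block also gave 0 in all 4, but it leaves the spread between lines in its SE. The ZEB1 probe A_33_P3640690 lost its call for PC14CDDP against PC14 in 10 settings (adjusted p 0.0528 to 0.171), among them without the premiR-197 arrays (0.26), the NC arrays (0.37) or the LNA-miR-197 arrays (0.41). These settings are not independent: slide 2 alone and the arrays of the comparison alone are the same fit, and the t-test is counted before and after adjustment. A_33_P3374723 gained a call in 3 (adjusted p 0.0341 to 0.0446). SNAI1 for A549 against PC14CDDP was lost by the methods' t-test after adjustment (adjusted p = 0.0629), and ESRP1 for the same lines was called with the percentile taken over probes above background on all arrays (adjusted p = 0.0167). SNAI1 for A549 against PC14 passed without the LNA-miR-197 arrays (0.58, adjusted p = 0.0172).

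Counts over all probes depended strongly on the setting after transfection. They ran from 0 to 644 for premiR-197 (27 as given), 0 to 4981 for LNA-miR-197 (2680), 0 to 985 for LNA-miR-NC against NC (153) and 0 to 910 for the difference of responses (17). Without A549, PC14 or PC14CDDP they fell to 0 for premiR-197 and for LNA-miR-197. For PC14CDDP against PC14 they ran from 10800 to 18965 (16407), the lowest by the methods' t-test after adjustment. ESRP1, GRHL2 and FN1 lay near background in several lines, where their values carry little precision.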
